A study of Mus musculus with 72 samples.

Results

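The genes described here are 7 genes of the growth hormone axis: Ghrh, Sst, Sstr1, Sstr2, Ghr, Igf1 and Socs2. They were chosen by name and read in every library, out of 21749 genes listed in all 10 count tables and 55401 listed in at least 1. RNA of the hypothalamus was sequenced from adult B6 mice in 72 libraries. The mice carried a knockout (KO) of 1 of 5 conserved noncoding elements, E1 to E5, or were wild type (WT) for it, and the study asked whether losing an element with a link to hibernation changes gene expression. Each line has 4 groups: fasted KO, fasted WT, fed KO and fed WT, where fasted mice had water but no food for 72 h. Of the 20 groups, 12 hold 4 libraries. The other 8 hold 3: the 4 groups of E3, fasted E2 KO, fasted E2 WT, fasted E4 KO and fasted E1 WT. The labels give the strain, the tissue, KO or WT and fasted or fed. They do not say where in the genome the elements lie, whether a KO is homozygous, what sex or exact age the mice had, or whether a line came from 1 founder. The names of the deposited counts put Fto before each of E1 to E5 and give no position.

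Growth hormone is released by the pituitary under a pair of opposing hypothalamic peptides. Growth hormone releasing hormone, made by neurons of the arcuate nucleus, drives release, and somatostatin, made among other places by neurons of the periventricular nucleus, inhibits it. Growth hormone then binds its receptor, which acts through the kinase JAK2 and the transcription factor STAT5, and insulin-like growth factor 1 and the feedback inhibitor SOCS2 are classic products of that signal. Somatostatin is also a transmitter of many other neurons of the forebrain, so its RNA in a tissue block is not that of the neuroendocrine cells alone.

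Library totals ran between 5517552 and 39999368 counts. The shallowest library, fasted E4 KO replicate 1, had 36.3% of its counts in its 10 most abundant genes. In 17 libraries the summed CPM of markers of another tissue stood far above the other libraries: pituitary in 9 fasted libraries of E2, E4 and E5, choroid plexus in 4, liver in 2, fat in 1 and skeletal muscle in 1. By the same rule, markers of cortex and hippocampus stood apart in 7 libraries, namely fasted E1 KO replicates 2 and 4, fasted E1 WT replicate 3, fasted E2 WT replicate 3, fasted E3 KO replicate 2, fasted E3 WT replicate 2 and fed E3 KO replicate 3. These were left out in an alternative of their own, chosen after seeing the data. Fed and fasted libraries carry the same batch number in the labels in E1 and in E3. In E2, E4 and E5 they carry different ones, so feeding state and batch number cannot be told apart there. All 11 markers used to check the tissue label had counts in E1 and E3, with summed levels of 166 to 330 CPM in fasted E3, 144 to 204.5 CPM in fed E3, 241 to 469 CPM in fasted E1 and 430 to 563 CPM in fed E1. The labels do not state that each library is a separate animal, so the p-values below measure the spread between these libraries.

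Levels are given as CPM, the count of a gene scaled to the total of its library. Over the 72 libraries, Ghr had the highest median CPM, 103, with a range of 53.1 to 1027, and Ghrh the lowest, 3.10, with a range of 1.27 to 7.23. Sst had a median of 57.3 CPM, Socs2 16.2 CPM, Sstr1 14.7 CPM and Igf1 9.10 CPM. Divided by the length of the gene's exons, the order changes: the mean level was 89.4 CPM per kb for Sst, 13.0 for Ghr, 6.75 for Sstr1, 4.75 for Ghrh, 1.76 for Socs2 and 1.44 for Igf1. The 7th gene, Sstr2, a receptor through which somatostatin acts in brain and pituitary, was listed at 0 in all 72 libraries and entered no test. Its RNA is known from mouse hypothalamus, so the 0 may come from the counting and is not read as absence. The other 6 passed the filter on low counts in every comparison. Ghrh rests on the fewest reads, 18 to 170 per library, against 355 to 5915 for Sst.

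Ghrh (ENSMUSG00000027643) lies on the minus strand of chr2:157329497-157347506 and Sst (ENSMUSG00000004366) on the minus strand of chr16:23889573-23890958 (mm10). Promoter sequence from RefSeq was at hand for 5 of the 7 genes, in 7 windows, and the 150 bases before each start were searched on both strands for 3 motifs chosen after the sequences had been seen. These are the cyclic AMP response element TGACGTCA, the TATA box TATAAA and the STAT5 motif TTCNNNGAA. The Sst window holds TGACGTCA 48 to 41 bases before the start, the element through which cyclic AMP and CREB act on the rat gene. The window of the more downstream of 2 Ghrh starts, inside introns of longer GENCODE transcripts, holds TATAAA 31 to 26 bases before the start. Both are shown, with the motif in capitals, because these 2 hormone genes are the ones that were called together on fasting in E3. For Sst 30 bases are printed, since GENCODE M21 has an exon over 114 bases of this window (GRCm38.p6, chr16:23890874-23890903, minus strand), for Ghrh 150 bases (GRCm38.p6, chr2:157337427-157337576, minus strand).
Sst: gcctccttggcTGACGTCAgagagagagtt
Ghrh: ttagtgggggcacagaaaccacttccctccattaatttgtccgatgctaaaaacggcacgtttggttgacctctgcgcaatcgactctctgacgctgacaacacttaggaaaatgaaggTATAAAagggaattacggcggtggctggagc
Over all 32851 RefSeq windows of 150 bases, 1.36% hold TGACGTCA, 7.57% TATAAA and 4.09% TTCNNNGAA. The Sstr2 window also holds TGACGTCA, and none of the 7 windows holds the STAT5 motif. Sstr1 and Socs2 had no window, so no motif was searched for in them. A match describes the letters and is not evidence of binding.

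Somatostatin RNA was higher in the fasted mice of E3. Sst stood at 87.0, 88.6 and 76.8 CPM in the fasted KO libraries and at 81.8, 117 and 84.9 CPM in the fasted WT libraries. It stood at 63.7, 66.5 and 52.3 CPM in the fed KO libraries and at 49.4, 44.6 and 44.0 CPM in the fed WT libraries. Every fasted library was above every fed one, and the lowest 3 of the 12 were the fed WT libraries. The fasted minus fed difference, averaged over both genotypes, was 0.75 on the log2 scale (SE 0.09, 95% interval 0.56 to 0.95, edgeR adjusted p = 0.000424), and it was between 0.68 and 0.79 when any 1 library was left out. Without the 3 E3 libraries holding cortex markers it was 0.60 (edgeR adjusted p = 0.000897). In this fit 18.5% of all genes tested passed the same threshold, and 2 of the 6 growth hormone axis genes did, both upward. In bulk tissue, fewer cells of a type and less RNA per cell cannot be told apart, and the same holds for more.

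Ghrh was the other gene called on fasting in E3, with a wider error. It stood at 5.35, 2.55 and 2.24 CPM in fasted KO libraries and at 3.69, 6.31 and 4.65 CPM in fasted WT libraries. The fed KO libraries had 2.65, 2.64 and 1.62 CPM and the fed WT libraries 2.21, 2.004 and 3.04 CPM. The fasted WT libraries lay above all fed ones, and 2 of the 3 fasted KO libraries lay among them. The difference was 0.77 on the log2 scale (SE 0.25, 95% interval 0.23 to 1.31, edgeR adjusted p = 0.0472). It did not hold its call when any 1 of 10 of the 12 libraries was left out, the exceptions being fasted KO replicate 3 and fasted WT replicate 1. Without fasted KO replicate 1, the highest of its group, it was 0.53 (adjusted p = 0.12), and without the 3 libraries holding cortex markers 0.65 (adjusted p = 0.132).

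**Figure D1:**
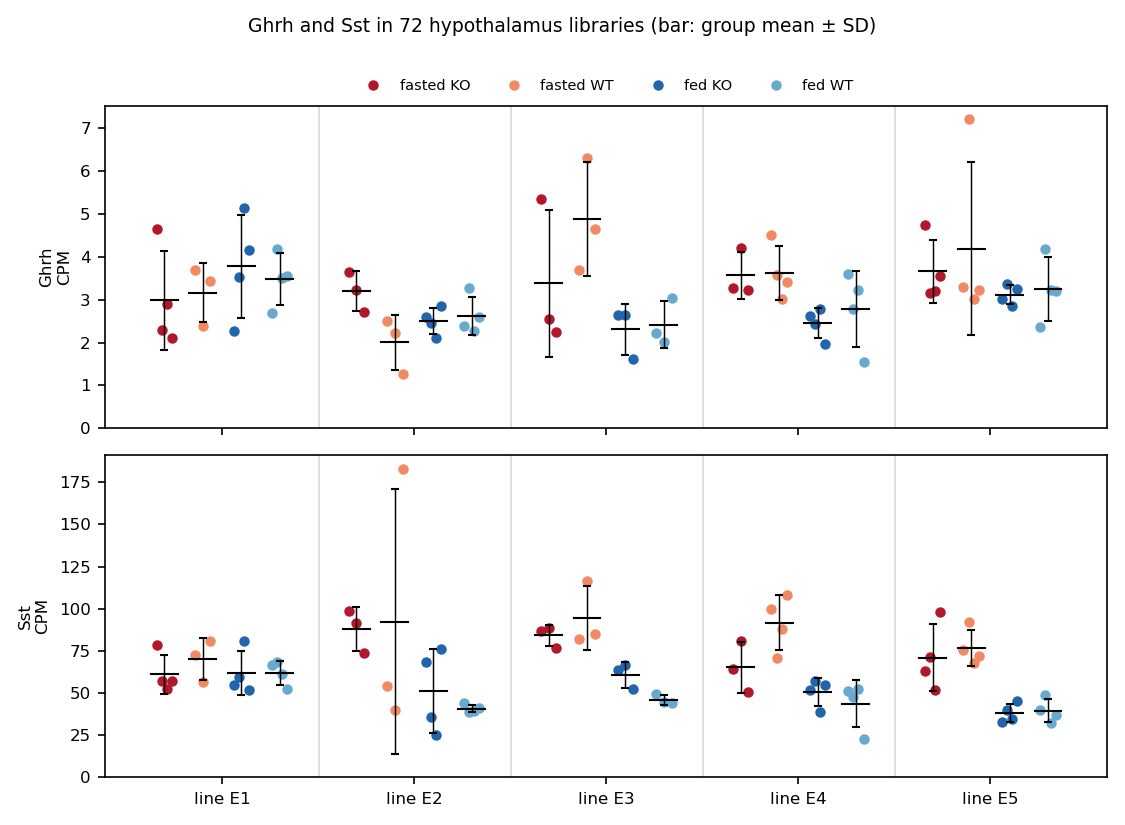
CPM of Ghrh and Sst in each library by line, feeding state and genotype, with 1 point per library, a bar at the group mean and error bars of 1 SD. The fasted E3 libraries, at 76.8 to 117 CPM for Sst, all lie above the fed ones, at 44.0 to 66.5 CPM, while in E1 the fasted and fed libraries cover the same range.

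E1, the other line whose feeding states share a batch number, gave another picture for the ligands. Sst stood at 52.5 to 78.2 CPM in fasted E1 KO and 56.7 to 81.1 CPM in fasted E1 WT libraries, against 51.9 to 80.9 CPM in fed KO and 52.4 to 68.2 CPM in fed WT libraries. The groups overlapped over most of their range, and the difference was 0.06 on the log2 scale (95% interval -0.16 to 0.29, edgeR adjusted p = 0.665). Ghrh differed by -0.26 (edgeR adjusted p = 0.292). The test of the difference between the lines gave 0.69 for Sst (E3 minus E1, log2, SE 0.15, edgeR adjusted p = 0.00247) and 1.03 for Ghrh (SE 0.32, edgeR adjusted p = 0.0247), in a fit where 19.9% of all genes passed and 3 of the 6 members did. The Ghrh difference was 0.79 (adjusted p = 0.067) without fasted E3 KO replicate 1 and 0.78 (adjusted p = 0.129) without the libraries holding cortex markers, where that of Sst was 0.56 (adjusted p = 0.0211). Line and batch number coincide in this comparison, and counts of Ddx3y, which lies on the Y chromosome, gave 69.8 to 136 CPM across E3 and at most 0.0643 CPM across E1, so line, batch number and sex cannot be told apart.

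Within genotypes of E3, Sst was called in WT mice, at 1.05 on the log2 scale (edgeR adjusted p = 0.00051), and not in KO mice, at 0.45 (edgeR adjusted p = 0.14). In WT mice 23.3% of all genes and 1 of the 6 members passed, and in KO mice 0.778% of all genes and 0 of the 6 members, with 1 member at an unadjusted p under 0.05 and none called by DESeq2. Over all genes in KO mice, 1903 of 15033 had such a p and DESeq2 called 361. For Sst the test between the genotypes, the KO effect in fasted minus the KO effect in fed mice, gave -0.60 (SE 0.18, edgeR adjusted p = 0.0889). DESeq2 gave an adjusted p of 0.0271. In this interaction 1.34% of all genes passed in edgeR, and 0 of the 6 members did, with 1 at an unadjusted p under 0.05 and 1 called by DESeq2. Over all genes, 3066 of 15033 had such a p and DESeq2 called 1098.

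Tissue markers moved beside Sst. In E3, 5 thalamus markers, all detected, summed to 1139 to 1722 CPM in fasted KO and 858 to 1703 CPM in fed KO libraries. These ranges overlap, with medians of 1506 and 1220.5 CPM. In WT the sum was 709 to 1391 CPM in fasted and 1589.8 to 1977 CPM in fed libraries, without overlap. The 6 arcuate nucleus markers, of which 5 had counts in each E3 library, include Npy, Agrp and Pomc. The 6 summed to 69.0 to 77.9 CPM in fasted KO libraries of E3. Their sum was 63.4 to 84.1 CPM in fasted WT, 37.5 to 53.3 CPM in fed KO and 39.9 to 45.9 CPM in fed WT libraries. Npy had medians of 25.0 CPM in fasted KO and 27.15 CPM in fasted WT, against 15.4 CPM in fed KO and 8.83 CPM in fed WT. In the same order, Agrp had 5.30 and 4.96 CPM against 4.92 and 5.68 CPM. Pomc had 3.67 and 4.46 CPM against 3.36 and 5.82 CPM. Over all 72 libraries, each as a deviation from its group mean, Sst had a Spearman correlation of -0.72 with the thalamus sum and 0.48 with the hypothalamus sum. For Sstr1 these correlations were -0.67 and 0.51, for Ghr 0.40 with the thalamus sum and for Igf1 0.46. The points share library depth and the dissected block, and the part of tissue composition in the fasting results was not tested.

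**Figure D2:**
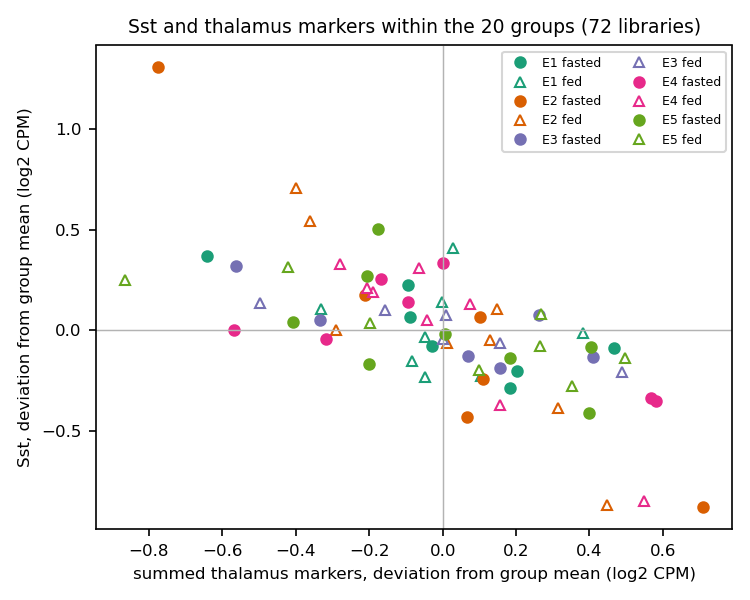
Deviation of Sst from its group mean (log2 CPM, vertical axis) against the deviation of the summed thalamus markers from their group mean (log2 CPM, horizontal axis), with 1 point for each of the 72 libraries. Libraries with more thalamus marker RNA than their group have less Sst, with a Spearman correlation of -0.72.

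Among the receptors, Sstr1 (ENSMUSG00000035431, plus strand, chr12:58211772-58214444), an inhibitory receptor for somatostatin, had its 3 lowest group means in E3. It averaged 10.7 ± 2.42 CPM in fasted KO, 12.2 ± 8.85 CPM in fasted WT, 7.58 ± 1.41 CPM in fed KO and 8.18 ± 1.90 CPM in fed WT libraries of E3 (SD, n = 3 each). The 3 fasted WT libraries stood at 6.84, 22.4 and 7.36 CPM, so the wide error comes from replicate 2, and fasted and fed libraries overlapped. The fasting difference in E3 was 0.53 on the log2 scale (edgeR adjusted p = 0.164), and 0.17 without fasted WT replicate 2. In E1 Sstr1 fell by 0.16 (SE 0.06, edgeR adjusted p = 0.0429), with averages of 14.5 ± 1.06 CPM in fasted KO (n = 4) and 15.6 ± 0.661 CPM in fasted WT (n = 3) against 15.9 ± 1.19 CPM in fed KO (n = 4) and 17.4 ± 1.86 CPM in fed WT libraries (n = 4). This call was lost in DESeq2 (adjusted p = 0.055), with no filter on low counts (0.0555), without the library that holds muscle (0.0615), without the 3 that hold cortex markers (0.0506), and when any 1 of 10 of the 15 libraries was left out. The E3 minus E1 difference of 0.70 (SE 0.25, edgeR adjusted p = 0.0497) became 0.33 (adjusted p = 0.115) without fasted E3 WT replicate 2 and 0.30 (adjusted p = 0.222) without the libraries holding cortex markers, and lost its call when any 1 of 21 of the 27 libraries was left out.

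The growth hormone receptor gene Ghr (ENSMUSG00000055737, minus strand, chr15:3317760-3583492) was lower in the fasted mice of E1. The fasted KO libraries stood at 83.5, 72.8, 88.8 and 77.3 CPM and the fasted WT libraries at 84.7, 77.7 and 89.5 CPM. The fed KO libraries stood at 102, 102, 97.3 and 104 CPM and the fed WT libraries at 101, 99.6, 94.2 and 91.5 CPM. No fasted library reached the lowest fed one. Ghr fell by 0.28 on the log2 scale (SE 0.05, 95% interval -0.38 to -0.19, edgeR adjusted p = 0.000225), in a fit where 39.2% of all genes passed and 3 of the 6 members did, 1 upward and 2 downward. It fell by 0.33 within KO mice (edgeR adjusted p = 0.00096), where 34.5% of all genes and 2 of the 6 members passed, and by 0.23 within WT mice (edgeR adjusted p = 0.0431), where 8.93% and 1 of the 6 did. The 5 cortex and hippocampus markers, all detected, summed to 47.3 to 341 CPM in fasted KO and 39.4 to 280 CPM in fasted WT, against 15.6 to 23.1 CPM in fed KO and 21.8 to 43.6 CPM in fed WT libraries of E1. Without the 3 E1 libraries that stand apart in them, the Ghr change was again -0.28 (edgeR adjusted p = 0.000214). The fasted libraries left in that fit still had sums from 39.4 CPM up, against a median of 22.1 CPM in fed E1 libraries. It therefore cannot separate cortex content from feeding, and the part of cortex tissue in the Ghr change was not tested. Over all 72 libraries the Spearman correlation of Ghr with the cortex and hippocampus sum, as deviations from group means, was -0.38. In E3, where Ghr stood at 98.5 to 145 CPM in fasted and 93.3 to 142 CPM in fed libraries, the difference was 0.03, and the test between the lines gave 0.32 (E3 minus E1, edgeR adjusted p = 0.149).

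**Figure D3:**
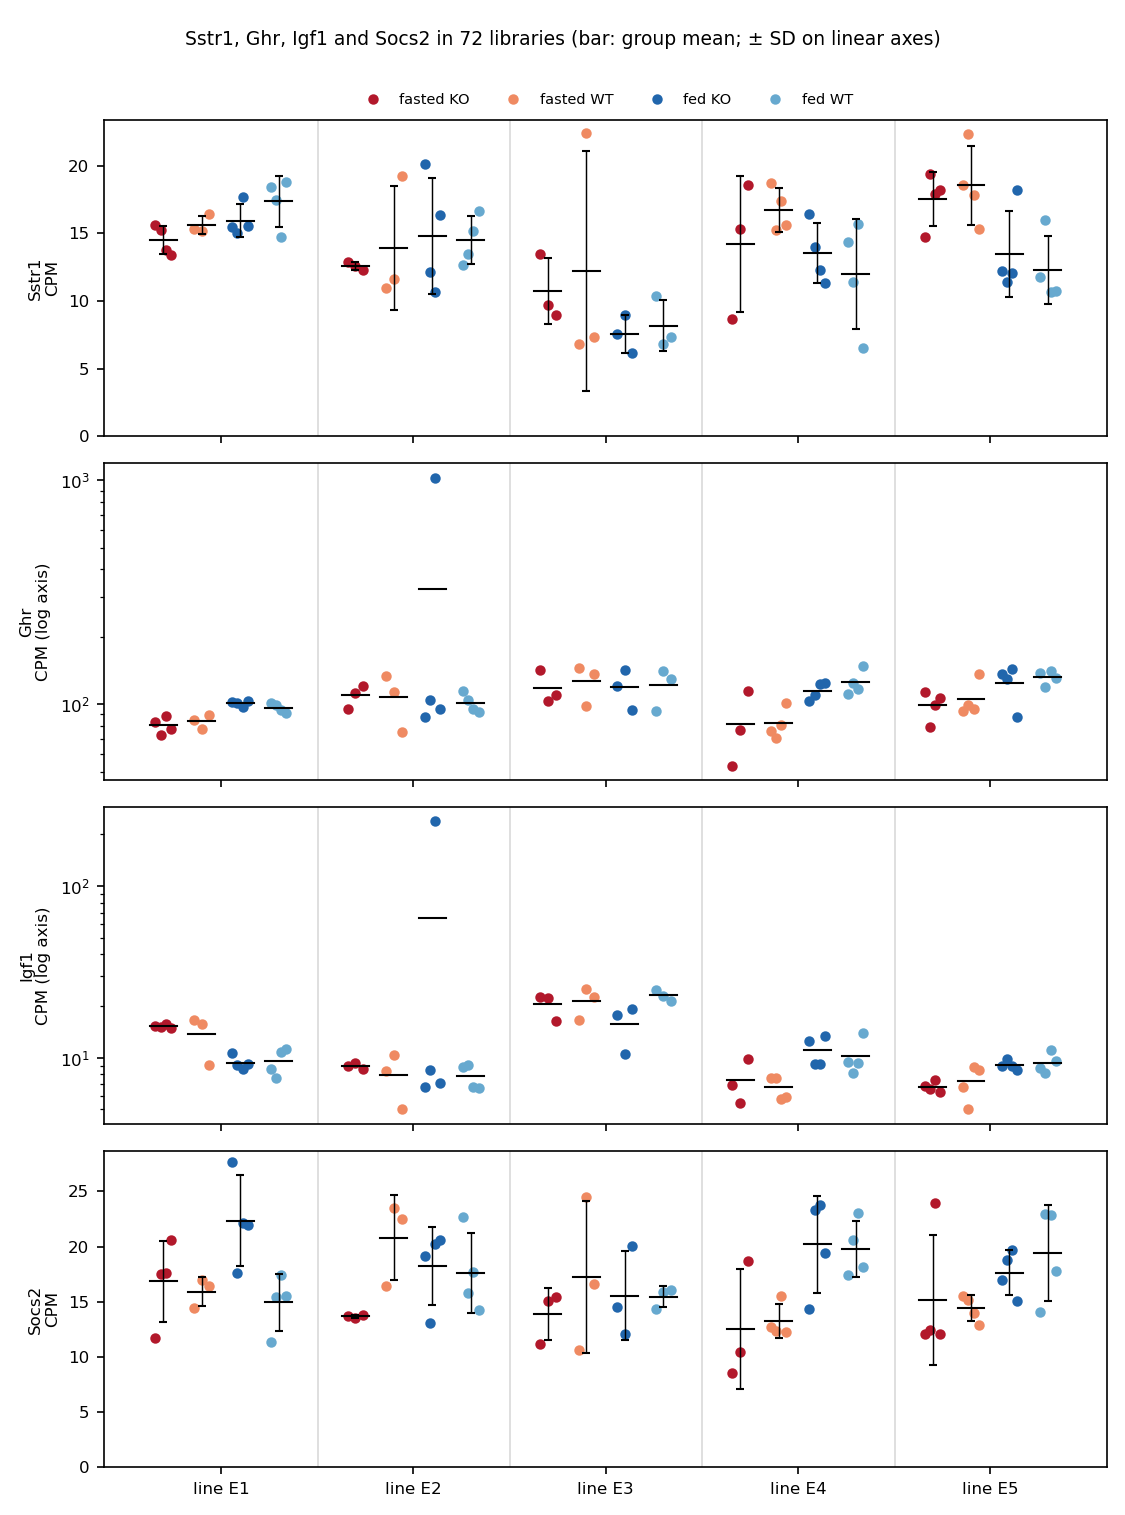
CPM of Sstr1, Ghr, Igf1 and Socs2 in each library by line, feeding state and genotype, with 1 point per library and a bar at the group mean. The axes of Ghr and Igf1 are log axes, and the other axes are linear with error bars of 1 SD. Ghr and Igf1 of fed E2 KO replicate 3, at 1027 and 238 CPM, lie far above the other libraries, and the fasted E1 libraries lie below the fed ones for Ghr.

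Igf1 (ENSMUSG00000020053, plus strand, chr10:87858265-87937042), which codes for the growth factor that carries much of the action of growth hormone, was higher in the fasted mice of E1. It stood at 15.3, 15.1, 15.7 and 14.95 CPM in fasted KO and at 16.7, 15.6 and 9.05 CPM in fasted WT libraries. It stood at 10.6, 9.06, 8.59 and 9.14 CPM in fed KO and at 8.57, 7.61, 10.8 and 11.2 CPM in fed WT libraries. Every fasted library lay above all fed ones except fasted WT replicate 3, which lay among them. Igf1 rose by 0.60 on the log2 scale (SE 0.12, 95% interval 0.35 to 0.86, edgeR adjusted p = 0.00102). Without the 3 libraries holding cortex markers, fasted WT replicate 3 among them, the change was 0.71 (edgeR adjusted p = 4.77e-05). Ghr and Igf1 thus moved in opposite directions between the same libraries. Within KO mice the Igf1 difference was 0.70 (edgeR adjusted p = 0.00381) and within WT mice 0.50 (edgeR adjusted p = 0.0863).

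The groups of E3 had the highest mean Igf1 levels after fed E2 KO. It averaged 20.4 ± 3.43 CPM in fasted KO, 21.4 ± 4.36 CPM in fasted WT, 15.8 ± 4.63 CPM in fed KO and 23.1 ± 1.66 CPM in fed WT libraries (SD, n = 3 each). Fasted and fed libraries overlapped, the fasting difference in E3 was 0.13, and the test between the lines gave -0.47 (E3 minus E1, edgeR adjusted p = 0.101). That difference passed without fasted E1 WT replicate 3, at -0.59 (adjusted p = 0.0225), without fed E3 KO replicate 2, at -0.58 (adjusted p = 0.0273), and without the libraries holding cortex markers, at -0.59 (adjusted p = 0.0413). Line, batch number and sex cannot be told apart in the level of E3 either.

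Socs2 (ENSMUSG00000020027, minus strand, chr10:95385362-95417180) codes for the inhibitor that is switched on by growth hormone signalling and shuts it down. It was not called on fasting in E1, at -0.17 on the log2 scale (edgeR adjusted p = 0.293), nor in E3, at 0.00. Its E1 levels were 11.7 to 20.6 CPM in fasted KO, 14.4 to 17.0 CPM in fasted WT, 17.6 to 27.7 CPM in fed KO and 11.4 to 17.5 CPM in fed WT libraries. In E3 they were 11.2 to 15.4 CPM, 10.7 to 24.4 CPM, 12.1 to 20.02 CPM and 14.4 to 16.1 CPM in the same order of groups. Fasted and fed libraries overlapped in both lines.

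Over both lines in 1 fit, 38.0% of all genes passed on fasting and 2 of the 6 members did: Sst at 0.41 (edgeR adjusted p = 0.000151) and Igf1 at 0.38 (edgeR adjusted p = 0.00468). For Sst this mean covers a difference of 0.06 in E1 and 0.75 in E3, and for Igf1 one of 0.60 in E1 and 0.13 in E3.

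In E4 and E5 the fasted and fed libraries differ in batch number as well as in feeding. In both lines the estimates of Sst and Ghrh lay above 0 and those of Ghr, Igf1 and Socs2 below 0. In E5 62.0% of all genes passed and 5 of the 6 members did. Sst stood at 51.9 to 98.3 CPM in fasted KO and 67.9 to 91.9 CPM in fasted WT, against 33.0 to 45.1 CPM in fed KO and 32.3 to 48.9 CPM in fed WT libraries, with no overlap, a difference of 0.83 (edgeR adjusted p = 7.8e-06). Sstr1 was also higher, at 0.39 (adjusted p = 0.00394). Ghr was lower at -0.42 (adjusted p = 0.00354), Igf1 at -0.48 (adjusted p = 0.000889) and Socs2 at -0.42 (adjusted p = 0.0163). In E4 47.4% of all genes passed and 5 of the 6 members did. Sst was higher at 0.77 (adjusted p = 0.00132) and Ghrh at 0.47 (adjusted p = 0.0297). Socs2 was lower at -0.62 (adjusted p = 0.00119), Ghr at -0.55 (adjusted p = 0.000703) and Igf1 at -0.58 (adjusted p = 0.0127).

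Taken within genotypes, E5 had 3 of the 6 members called in KO mice (Sst, Ghr and Igf1, where 39.6% of all genes passed) and 5 in WT mice (53.0%). E4 had 4 called in WT mice (Sst, Ghr, Igf1 and Socs2, where 42.5% of all genes passed). In E4 KO mice, whose 3 fasted libraries include the shallowest of all, 0 of the 6 passed beside 19.2% of all genes, with 4 at an unadjusted p under 0.05 and 1 called by DESeq2. Over all genes there, 6549 of 19393 had such a p and DESeq2 called 4328.

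Igf1, higher in fasted E1, was thus lower in fasted E4 and E5, where it stood at 5.47 to 9.86 CPM and 5.02 to 8.83 CPM in the fasted and at 8.15 to 13.9 CPM and 8.13 to 11.1 CPM in the fed libraries. After a trend with GC content was removed, an alternative chosen after seeing the data, the E5 calls held, while in E4 Sst, at 0.45, and Socs2, at -0.45, kept theirs and Ghr, at -0.18, Igf1, at -0.09, and Ghrh, at 0.14, did not. The Ghrh call in E4 was also lost without fasted KO replicate 1 (0.40, adjusted p = 0.071), fasted KO replicate 2 (0.45, 0.0761), fasted WT replicate 1 (0.42, 0.0623) or fed KO replicate 4 (0.43, 0.0593), and the Igf1 call without fasted KO replicate 2 (-0.43, 0.056). The thalamus sum was lower in both fasted sets, at 411 to 906 CPM in fasted E4 against 726 to 1540 CPM in fed E4, and at 413 to 736 CPM in fasted E5 against 608 to 1560 CPM in fed E5. Its part in these differences was not tested.

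In E2 18.9% of all genes passed and 0 of the 6 members did in edgeR, with 1 at an unadjusted p under 0.05 and 1, Sst, called by DESeq2. Over all genes, 7006 of 20452 had such a p and DESeq2 called 4835. Fasted WT replicate 3 had 183 CPM of Sst, against 54.5 and 39.7 CPM in the other fasted WT libraries, 98.8, 91.4 and 73.8 CPM in fasted KO, 25.3 to 76.3 CPM in fed KO and 39.1 to 44.0 CPM in fed WT libraries. The Sst difference was 0.92 (edgeR adjusted p = 0.0561) with that library and 0.43 without it. Within genotypes of E2 0 of the 6 members passed, beside 2.42% of all genes in KO and 8.36% in WT mice, with 3 and 1 at an unadjusted p under 0.05 and none called by DESeq2. Of the 20452 genes, 4148 in KO and 5455 in WT mice had such a p, and DESeq2 called 1350 and 2892. The summed pituitary markers were 5794 CPM in fasted WT replicate 3 and 1274 and 11673 CPM in the other 2 fasted WT libraries. Their part in the Sst values was not tested.

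The labels give 1 pair of fasted and fed sets of different lines with the same batch number, fasted E5 and fed E2. Of all genes, 28.5% passed between them, and 2 of the 6 members did. Sst stood at 51.9 to 98.3 CPM in the fasted E5 libraries and 25.3 to 76.3 CPM in the fed E2 libraries, which overlap, with a difference of 0.68 (edgeR adjusted p = 0.0135). Ghrh, at 3.03 to 7.23 CPM against 2.10 to 3.26 CPM, differed by 0.61 (edgeR adjusted p = 0.0226). Both kept their call when any 1 library was left out, at 0.56 to 0.80 for Sst and 0.40 to 0.67 for Ghrh. Line and feeding cannot be told apart in this pair.

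**Figure D4:**
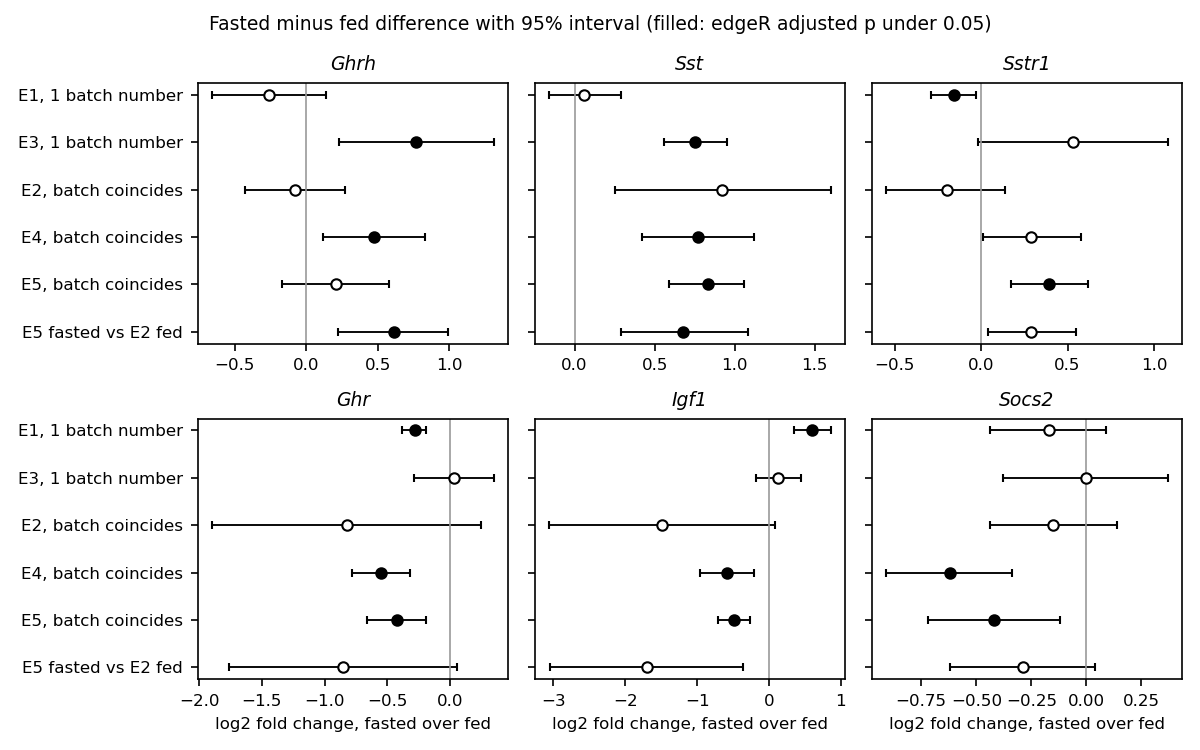
Fasted minus fed difference of the 6 tested genes (log2 fold change, with 95% intervals) in each line and in fasted E5 against fed E2, with filled points for an adjusted p under 0.05. Sst lies at 0.06 in E1 and at 0.68 to 0.92 in the other comparisons, and Igf1 lies at 0.60 in E1 and at -0.58 and -0.48 in E4 and E5.

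With all libraries in the fit, none of the 6 genes was called between KO and WT mice in edgeR, for any of the 5 elements. In edgeR each of the 10 comparisons of KO with WT mice, 5 fasted and 5 fed, had 0% of all genes called. It called 0 of the 6 members, so the members' count equals the background. Over all genes, DESeq2 called 539 of 14590 in fasted E3, 109 of 20243 in fasted E2 and 107 of 14602 in fed E3. In each of the other comparisons it called 0 to 21 genes. Of the 60 estimates, 5 had an unadjusted p under 0.05, DESeq2 called 0, and the smallest edgeR adjusted p was 0.341. Those 5 lay in fed E1, fed E2, fasted E2 and fed E3. Over all genes there, in that order, 715 of 14734, 657 of 18723, 1512 of 20243 and 1422 of 14602 had such a p. Fasted E3 had the highest count, 2546 of 14590 genes, and 0 of the 6 members there had such a p. The 60 estimates ran between -0.63 and 3.09 on the log2 scale, with 24 above 0 and 36 below. The authors' deposited tables of 8 of these comparisons give 48 values for these genes, each with an adjusted p of 1.

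The 5 estimates with a small unadjusted p concern Socs2, Sst and Igf1. Socs2 stood at 27.7, 17.6, 22.2 and 22.0 CPM in fed E1 KO, against 11.4, 15.4, 17.5 and 15.5 CPM in fed E1 WT libraries. The difference was 0.57 on the log2 scale (SE 0.14, 95% interval 0.27 to 0.87, edgeR adjusted p = 0.953). In fasted E2 Socs2 was lower in KO, at 13.7, 13.5 and 13.8 CPM against 16.4, 23.5 and 22.5 CPM in WT libraries. The difference there was -0.63 (SE 0.17, edgeR adjusted p = 0.66). The pituitary markers summed to 1274, 11673 and 5794 CPM in the 3 fasted WT libraries.

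Sst in fed E3 stood at 63.7, 66.5 and 52.3 CPM in KO against 49.4, 44.6 and 44.0 CPM in WT libraries. The difference was 0.38 (SE 0.10, edgeR adjusted p = 0.341), and the thalamus sum there was 858 to 1703 CPM in KO and 1589.8 to 1977 CPM in WT libraries. Igf1 in fed E3 stood at 17.8, 10.5 and 19.1 CPM in KO against 24.7, 23.0 and 21.4 CPM in WT libraries, a difference of -0.57 (SE 0.19, edgeR adjusted p = 0.426). Igf1 in fed E2 differed by 3.09 (SE 1.19), a value that rests on 1 library.

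That library, fed E2 KO replicate 3, had 1027 CPM of Ghr, against 87.6, 104 and 95.5 CPM in the other fed E2 KO libraries and 91.8 to 115 CPM in WT libraries. Its Igf1 stood at 238 CPM, against 6.71, 8.44 and 7.11 CPM in the other KO libraries and 6.63 to 9.04 CPM in WT libraries. The summed level of 7 fat markers, all detected, was 5358 CPM in it and 0 to 1.83 CPM in the other 71 libraries. Without it the KO difference was -0.05 for Igf1 and -0.07 for Ghr, against 3.09 and 1.72 with it. The same library sets the E2 fasting differences of -1.49 for Igf1 and -0.82 for Ghr, which were both 0.08 without it, and those of -1.70 and -0.85 between fasted E5 and fed E2, which were -0.13 and 0.05 without it. Likewise, the KO difference of Sst in fasted E2 was -0.10 with all libraries. It was 0.89 (edgeR adjusted p = 0.0416) without fasted WT replicate 3, the library of this line that holds cortex markers. That fit called 772 genes in all and left only replicates 1 and 2 as WT libraries. Their pituitary markers summed to 1274 and 11673 CPM, and the part of other tissue in this difference was not tested.

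Fitted over both feeding states of a line, 0 of the 6 members and 0% of all genes were called in any of the 5 lines in edgeR. DESeq2 called none of the members, beside 15 of 20452 genes in E2, 44 of 15033 in E3 and 0 in the other lines. Of the member estimates, 3 had an unadjusted edgeR p under 0.05. Those 3 lay in E1, E2 and E3, where 378 of 15222, 1213 of 20452 and 1557 of 15033 genes had such a p. A p above the threshold does not show equal levels, and the 95% intervals give the sizes that these libraries leave possible. Over the 5 lines they lay between folds of 0.675 and 1.74 for Sst, 0.542 and 1.57 for Ghrh, 0.605 and 1.29 for Sstr1 and 0.671 and 1.52 for Socs2. They were wider for Ghr, 0.742 to 3.8, and for Igf1, 0.632 to 9.02, where E2 includes fed KO replicate 3. The interaction of KO and feeding called 0 of the 6 members in each line in edgeR, with 0% of all genes called outside E3. There were 2 members at an unadjusted edgeR p under 0.05 in E2 and 1 in E3, and DESeq2 called 1, Sst in E3. Over all genes such a p was seen for 1320 of 20452 in E2 and 3066 of 15033 in E3.

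**Figure D5:**
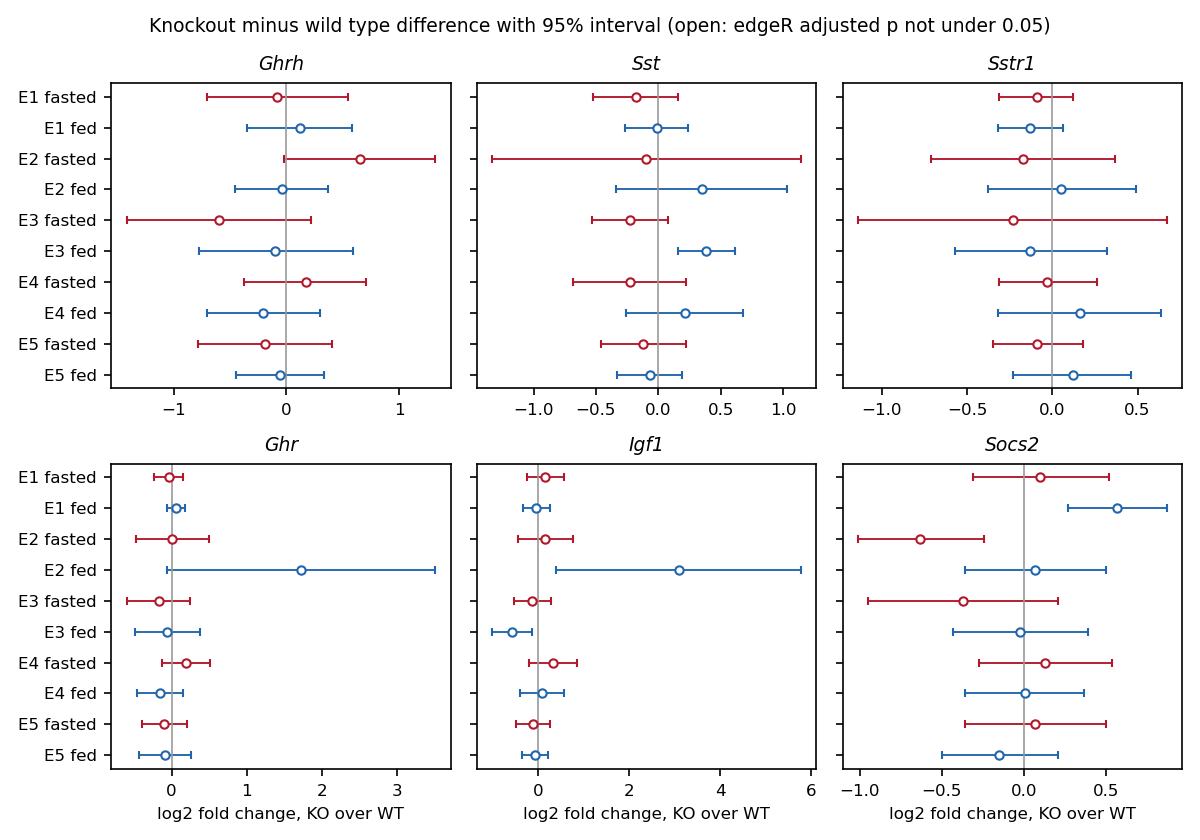
KO minus WT difference of the 6 tested genes (log2 fold change, with 95% intervals) in each line, for fasted and fed mice. No estimate passed an adjusted p of 0.05, and the 2 that stand apart, 3.09 for Igf1 and 1.72 for Ghr in fed E2, rest on 1 library.

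Ranked by group mean, neighbouring groups rarely differed by more than the larger of their SDs. This held for 0 of the 19 neighbouring pairs of groups for Sst, Ghrh, Igf1 and Socs2 and for 1 of 19 for Sstr1 and for Ghr. Sst ran between 94.4 ± 19.2 CPM in fasted E3 WT and 38.2 ± 5.58 CPM in fed E5 KO, and Ghrh between 4.88 ± 1.33 CPM in fasted E3 WT and 2.0 ± 0.652 CPM in fasted E2 WT. Sstr1 ran between 18.5 ± 2.90 CPM in fasted E5 WT and 7.58 ± 1.41 CPM in fed E3 KO, with its single gap between fasted E3 KO, at 10.7 CPM, and fed E3 WT, at 8.18 CPM. Ghr was highest in fed E2 KO, at 329 ± 466 CPM, and lowest in fasted E1 KO, at 80.6 ± 7.01 CPM, with its gap between fed E1 WT, at 96.6 CPM, and fasted E1 WT, at 84.0 CPM. Igf1 ran between 65.1 ± 115 CPM in fed E2 KO, which rests on replicate 3, and 6.74 ± 1.02 CPM in fasted E4 WT. Socs2 ran between 22.4 ± 4.12 CPM in fed E1 KO and 12.6 ± 5.42 CPM in fasted E4 KO. Scaled by TMM factors, the highest Socs2 group was fed E4 WT and the lowest fasted E4 WT, and the lowest Sst group was fed E2 WT, while the other ends were the same.

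The remaining group means fill in between these ends. Sst in E1 averaged 61.2 ± 11.6 CPM in fasted KO, 70.1 ± 12.4 CPM in fasted WT, 61.7 ± 13.1 CPM in fed KO and 62.0 ± 7.06 CPM in fed WT libraries. In E4 it averaged 65.3 ± 15.2, 91.8 ± 16.2, 50.7 ± 8.35 and 43.6 ± 14.0 CPM in that order of groups. Ghrh means of groups not yet named lay between 2.31 ± 0.591 CPM in fed E3 KO and 4.20 ± 2.02 CPM in fasted E5 WT. The last value rests on replicate 2, at 7.23 CPM, beside 3.03 to 3.30 CPM in the other 3.

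Across libraries, Sst and its receptor gene Sstr1 varied together. Over the 72 libraries, taken as deviations from group means, the Spearman correlation was 0.62 for Sst and Sstr1, 0.39 for Sst and Ghrh, -0.47 for Sst and Igf1 and -0.43 for Sstr1 and Ghr. On the same measure over 13042 genes, the genes most like Sst were Ctxn1 at 0.85, Rpusd1 at 0.81 and Ly6h at 0.78. Among those most like Ghr were Arhgap18 at 0.85 and Prkd1 at 0.80. For Sstr1 they were Ccl27a at 0.82 and Hyou1 at 0.81, for Igf1 Lama2 at 0.74 and Dlc1 at 0.64, for Ghrh Gstm6 at 0.60 and Cngb1 at 0.58, and for Socs2 Kremen1 at 0.59 and Ccnd3 at 0.54. The points share depth and tissue block, so these figures describe the libraries.

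Of 38 further genes of the axis, 14 of the 32 tested passed on fasting in E1, 5 upward and 9 downward, or 43.8% beside 39.2% of all genes. Those with the smallest p are named here. Stat5b, which codes for the transcription factor downstream of the receptor, averaged 87.8 ± 9.16 CPM in fasted (SD, n = 7) and 111 ± 5.21 CPM in fed libraries (n = 8), a log2 change of -0.35 (edgeR adjusted p = 3.44e-05). Prlr, the receptor of the related hormone prolactin, averaged 32.3 ± 3.74 CPM in fasted and 43.7 ± 4.63 CPM in fed libraries, a change of -0.44 (edgeR adjusted p = 6.1e-05). Ptpn2, a phosphatase that acts on JAK and STAT proteins, changed by -0.31 (edgeR adjusted p = 0.00184).

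Of the 6 with the smallest p, the 2 that rose code for binding proteins of insulin-like growth factor. Igfbp3 averaged 9.45 ± 0.803 CPM in fasted and 6.76 ± 0.775 CPM in fed libraries, a change of 0.45 (edgeR adjusted p = 0.000398), and Igfbp4 rose by 0.36 (edgeR adjusted p = 0.00434). Pappa, a protease that frees the growth factor from its binding proteins, changed by -0.56 (edgeR adjusted p = 0.000291).

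In E3, 3 of the 33 tested passed, 1 upward and 2 downward, or 9.09% beside 18.5% of all genes. Ghsr, the ghrelin receptor through which growth hormone release is also stimulated, averaged 4.44 ± 1.18 CPM in fasted and 2.84 ± 0.535 CPM in fed libraries (SD, n = 6 each), a change of 0.64 (edgeR adjusted p = 0.0411). Irs1, an adaptor of the insulin and growth factor receptors, changed by -0.23 (edgeR adjusted p = 0.0151) and Igf1r, the receptor of insulin-like growth factor 1, by -0.27 (edgeR adjusted p = 0.0459). The test between the lines called 5 of the 35 tested, or 14.3% beside 19.9% of all genes. Irs1 was among them, at -0.29 (E3 minus E1, edgeR adjusted p = 0.00262), and Sstr4, another somatostatin receptor gene, at 1.12 (edgeR adjusted p = 0.024).

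Ghsr was not among the 14 further genes called on fasting in E1. It was higher in the fasted libraries of the lines where batch number and feeding coincide. Ghsr is given for E4 and E5 after its values were seen. It averaged 8.15 ± 1.31 CPM in fasted E2 and 3.66 ± 0.925 CPM in fed E2 libraries (1.09, edgeR adjusted p = 0.00119), 7.20 ± 2.71 CPM in fasted E4 and 4.29 ± 1.14 CPM in fed E4 (0.69, adjusted p = 0.00509), and 8.32 ± 1.43 CPM in fasted E5 and 5.08 ± 1.60 CPM in fed E5 (0.61, adjusted p = 0.0024). Between fasted E5 and fed E2, which share a batch number, the difference was 1.18 (adjusted p = 0.00023). Of the further genes, 8 of 35 passed in E2 (6 upward, 2 downward), or 22.9% beside 18.9% of all genes. In E4 15 of 33 passed (10 upward, 5 downward), 45.5% beside 47.4%, and in E5 14 of 33 (7 each way), 42.4% beside 62.0%. Between fasted E5 and fed E2 11 of 34 passed (7 upward, 4 downward), 32.4% beside 28.5%. Gh, the growth hormone gene itself, was listed at 0 in 33 of the 72 libraries and reached 5928 CPM in the highest. The 3 fasted E2 WT libraries had 600 to 5928 CPM of Gh, beside summed pituitary markers of 1274 to 11673 CPM. Gh is among the genes counted upward in E2, E4, E5 and between fasted E5 and fed E2, and Ghrhr among those in E2. The part of pituitary tissue in these calls was not tested. Igf2 was listed at 0 in all 72. As edgeR called 0 genes of any kind between KO and WT mice, none of these was called there.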

How the data were processed

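RNA of the hypothalamus was measured in 72 libraries, and the labels put each in 1 of 20 groups. Per the submitters' processing notes, reads were handled with HISAT2, Bowtie2 and edgeR on the mm10 build, with no parameters or versions given in the sources used here. The authors deposited 10 tables of raw counts per gene, 58 columns of CPM that were not used, and 8 edgeR tables with a log2 fold change (WT over KO) and an adjusted p-value per gene. Strand use in counting is not given in the sources used here, and no base of the 7 genes' exons is shared with another gene in GENCODE M21. The column prefixes of the E3 tables, ctrl and 3CR, were taken as fed and fasted according to the table that holds them. The 37 mitochondrial genes are listed at 0 in all libraries.

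From the deposited counts, CPM was computed per library total. Tests used edgeR 4.0.16 quasi-likelihood fits (TMM scaling, low counts filtered by filterByExpr at 10 per library and 15 in total) in R 4.3.3, on group means models over all genes, with Benjamini-Hochberg adjusted p under 0.05 as the threshold. DESeq2 1.42.0, other scalings and filters, left-out libraries and a replicate block were alternatives, with a GC trend and libraries holding cortex markers added after seeing the data, 292 fits in all. The fit was tested on simulated data. The members and gene lists were chosen with earlier results of these data known. The named genes are the 7 members in every comparison, and, of 38 further axis genes, up to 6 called genes of smallest p per comparison (Ghsr in E4 and E5 is outside this rule). Likeness is the Spearman correlation of log2(CPM + 0.5) deviations from group means. Motifs were searched in RefSeq windows (GRCm38.p6). The lowest and highest library totals were 14931889 and 19816134 counts for E1, 23322124 and 39999368 for E2, 14911351 and 23619033 for E3, 5517552 and 33981500 for E4, and 18614527 and 30330400 for E5. One gene of like pattern is not reported here.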

Additional observations from a re-analysis of the deposited data

Results flagged for a closer look

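In groups of 4 libraries, 8 of 72 group values held a library far from its 3 neighbours, where chance gives about 1 in 20. Fed E2 KO replicate 3, the library with fat markers, had 1027 CPM of Ghr (1030.0 rounded) against 87.6 to 104 CPM, and 238 CPM of Igf1 against 6.71 to 8.44 CPM. Ghrh stood at 7.23 CPM in fasted E5 WT replicate 2 against 3.03 to 3.30 CPM. Sst stood at 22.8 CPM in fed E4 WT replicate 4 against 48.0 to 52.2 CPM. Sstr1 stood at 18.2 CPM in fed E5 KO replicate 4 against 11.4 to 12.2 CPM, and Ghr at 136 CPM in fasted E5 WT replicate 4 against 93.3 to 98.8 CPM. Socs2 stood at 15.5 CPM in fasted E4 WT replicate 3 against 12.3 to 12.7 CPM. It stood at 24.0 CPM in fasted E5 KO replicate 3, the library with the most pituitary marker RNA of all, against 12.1 to 12.4 CPM.

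The fasted minus fed difference was tested between E3 and E1 and was larger in E3 for Ghrh, by 1.03 on the log2 scale, for Sst, by 0.69, and for Sstr1, by 0.70. The Sstr1 call was lost when any 1 of 21 of the 27 libraries was left out. That of Ghrh was lost without the libraries holding cortex markers (0.78, edgeR adjusted p = 0.129), where Sst kept its call (0.56, edgeR adjusted p = 0.0211). Line, batch number and sex cannot be told apart in these differences.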

How the results depend on the processing

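Over 81 settings, 2997 of 3084 values of the 6 genes stayed on their side of the threshold without a called value changing sign, 63 lost a call, 19 gained one and 5 reversed. Most of the values were not called to begin with, so the 2997 say little about how stable the calls are. The 63 can come only from the smaller set of values that were called. Of the 2997, 206 changed sign with no call in either setting and 2791 kept their direction. The number of members called on fasting in E3 was 2, against 1 without libraries holding other tissues, 1 with the replicate block and 1 without libraries holding cortex markers, which also gave 1, against 0, for KO against WT in fasted E2. On fasting in E2 it was 1 in DESeq2 and 1 with the GC trend removed, against 0, and 2 with the GC trend removed in E4, against 5. In the E3 interaction DESeq2 called 1, against 0. Leaving out 1 library gave 0 to 1 member for KO against WT in fasted E2, 1 to 2 for fasting in E3, 1 to 4 for the difference between E3 and E1, 0 to 1 for E2, 3 to 6 for E4 and 2 to 4 between fasted E5 and fed E2. Igf1 in fed E2 KO against WT reversed to -0.05, both without libraries holding other tissues and without KO replicate 3 (-0.05 to 3.48 over single libraries left out). Sst in fasted E2 KO against WT reversed to 0.89 without WT replicate 3, which is also the library left out there for cortex markers (-0.45 to 0.89 over single libraries). Sstr1 on fasting in E4 reversed to -0.09 with the GC trend removed. Apart from the changes that follow from the library left out, the cause was not tested.

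Over all genes, the E3 interaction called 202 in edgeR, 1098 in DESeq2 and 0 with the replicate block, KO against WT in fasted E2 called 0 to 772 when 1 library was left out, and in fasted E3 DESeq2 called 539 against 0. Same-numbered libraries did not deviate together in every pair in any line. The groups are too small for this to decide whether the numbers pair libraries. With the replicate block in E3, Ghrh lost its call (0.76, edgeR adjusted p = 0.0732) and Sst kept it. Fits without libraries holding other tissues were not run where a group would keep fewer than 2, in E4, E5 and fasted E2. Ghrh, at 18 to 170 counts per library, is the gene whose estimates depth limits most.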
